A study of Mus musculus with 235 samples.

Results

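Messenger RNA of 8 genes that break down or recycle purine and pyrimidine nucleotides was measured in 8 brain regions of mice that had received dexamethasone or vehicle. The genes are Xdh, Aox1, Gda, Pnp, Hprt, Adk, Nt5c3 and Nt5c2, and they are 8 of the 27998 rows of the deposited count table. They were chosen by name, with earlier results of these data in view: Xdh because it was higher after dexamethasone, Nt5c3 because its difference varied between regions, and the other 6 enzymes for contrast. The differences of these genes between the arms are therefore given as a description, without p-values.

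The animals were 30 male C57Bl/6 mice aged 3 months, and the labels name no engineered allele. Dexamethasone, a synthetic agonist of the glucocorticoid receptor, was injected intraperitoneally at 10 mg per kg in 15 animals. The other 15 received saline the same way, and all tissue was taken after 4 h from perfused brains. Each region gave 13 to 15 libraries per arm, 118 vehicle and 117 dexamethasone libraries in all, and each animal contributed 6 to 8 regions. The labels name the regions PFC, AMY, PVN, CER, dCA1, vCA1, dDG and vDG, and these names are kept. Each brain was sectioned and the regions were punched from the sections, so a library holds the RNA of all cell types in a punch.

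Nucleotides released from RNA, from energy metabolism and from signalling are first stripped of phosphate by 5'-nucleotidases. The remaining nucleosides are cut by purine nucleoside phosphorylase to free bases, which are either returned to nucleotides by salvage enzymes or oxidised. In rodents, as in other mammals, xanthine oxidoreductase makes the oxidations from hypoxanthine to xanthine and on to urate. Brain relies heavily on salvage, and adenosine, an intermediate of the pathway, is also a transmitter that damps neuronal activity.

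Totals lay between 268538 and 1451422 counts per library (median 742957), so that 3 counts, the limit that a count of 0 allows, correspond to between 1.95 and 12.8 CPM (the level unit used here: counts scaled to a common library total with TMM factors). Marker genes placed some libraries apart. The libraries labelled CER nearly lacked Gabra6, a marker of cerebellar granule neurons: 26 of the 30 were at 0, and all 30 together held 11 counts. The sum of Gabra6 and Cbln3 was above 100 CPM in 5 libraries of vDG and vCA1, between 195 and 883 CPM, and at most 79.3 CPM in all others. Summed dentate granule markers were as high in dCA1 (1353 CPM, mean of the vehicle libraries) as in dDG (1182 CPM). Another 7 libraries of the count table have no column in the authors' tables of variance-stabilised values, among them a dCA1 vehicle library with 993 CPM of endothelial markers. The values of Xdh and Nt5c3 without these libraries are given beside their results.

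Xdh, which encodes xanthine oxidoreductase, lies on chromosome 17 (73883908 to 73950182, minus strand, GRCm38; ENSMUSG00000024066). It was higher after dexamethasone in all 8 regions, by 2.69-fold in dDG to 4.80-fold in vCA1. On the authors' variance-stabilised log2 values it was also higher in all 8, by 0.62 to 0.87, against 1.43 to 2.26 in the fits of counts. Vehicle libraries held few Xdh counts, on average 4.0 per library in vCA1 to 6.87 in AMY, and dexamethasone libraries 15.7 in PVN to 24.7 in CER. In vCA1 the vehicle libraries ranged from 1.27 to 12.3 CPM with a median of 4.36, and the dexamethasone libraries from 16.4 to 53.5 CPM with a median of 22.4. In PFC they ranged from 1.25 to 12.3 CPM (median 5.03) and from 13.8 to 34.7 CPM (median 19.8). In these 2 regions every dexamethasone library lay above every vehicle library.

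In the other 6 regions the arms of Xdh overlapped in a few libraries. In CER the vehicle libraries ran from 0 to 21.2 CPM (median 9.99) and the dexamethasone libraries from 19.9 to 63.0 CPM (median 29.5). In AMY the corresponding values were 1.77 to 19.8 CPM (median 9.31) and 15.6 to 49.8 CPM (median 33.3). Of the 15 dexamethasone libraries, 14 in CER and 13 in AMY lay above the highest vehicle library. In vDG, vehicle libraries ran from 2.08 to 17.7 CPM (median 6.23) and dexamethasone libraries from 9.18 to 69.4 CPM (median 27.3). In PVN they ran from 0 to 14.5 CPM (median 4.73) and from 6.71 to 41.5 CPM (median 20.4). Dexamethasone replicate 6 was the lowest dexamethasone library in both of these regions. In dDG the ranges were 1.54 to 16.0 CPM (median 8.41) and 14.1 to 31.6 CPM (median 24.5).

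The overlap of Xdh was widest in dCA1, where vehicle libraries ran from 2.37 to 32.7 CPM (median 5.94) and dexamethasone libraries from 15.4 to 34.2 CPM (median 19.3). Vehicle replicates 3 and 4 held 32.7 and 25.7 CPM there, and the other 13 vehicle libraries lay below every dexamethasone library. Replicate 4 is the library with 993 CPM of endothelial markers and is among the 7 that the authors' tables leave out.

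On the log2 scale the difference of Xdh was 2.26 ± 0.25 (SE) in vCA1, 1.94 ± 0.21 in PFC, 1.94 ± 0.23 in PVN and 1.92 ± 0.25 in vDG. It was 1.77 ± 0.24 in CER, 1.74 ± 0.21 in AMY, 1.53 ± 0.26 in dCA1 and 1.43 ± 0.21 in dDG. In a fit of all regions together the 8 values spanned 0.83. With the 7 libraries left out the difference was 1.65 in dCA1, 2.06 in vCA1 and 1.82 in vDG, and without the 5 libraries that held cerebellar granule genes it was 2.21 in vCA1 and 2.00 in vDG. Within each of the 32 combinations of a region with a library plate, and of a region with 4 of the 5 days of punching, the ratio of mean levels was above 1 (log2 0.51 to 3.02). The remaining day, with 1 vehicle library per region and 22 libraries in all, was left out of these ratios.

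Xdh passed edgeR's threshold of an adjusted p of 0.05 as higher in 8 of 8 regions. In PFC it met the filter on low counts through its dexamethasone libraries (mean 21.2 CPM, against 5.45 CPM in vehicle). Pnp (8.13 CPM in vehicle and 6.46 CPM after dexamethasone) and Aox1 (9.98 and 8.04 CPM) did not meet it there. Of all genes tested, 3.9% passed as higher in CER, 3.86% in PFC, 3.57% in PVN, 3.54% in AMY, 3.41% in vCA1, 2.64% in vDG, 2.57% in dCA1 and 2.33% in dDG. Arms without overlap, with dexamethasone above, were found for 0.315% of genes in PFC and 0.274% in vCA1. These shares are the background for the counts of Xdh and Nt5c3, which were chosen on this comparison.

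**Figure D1:**
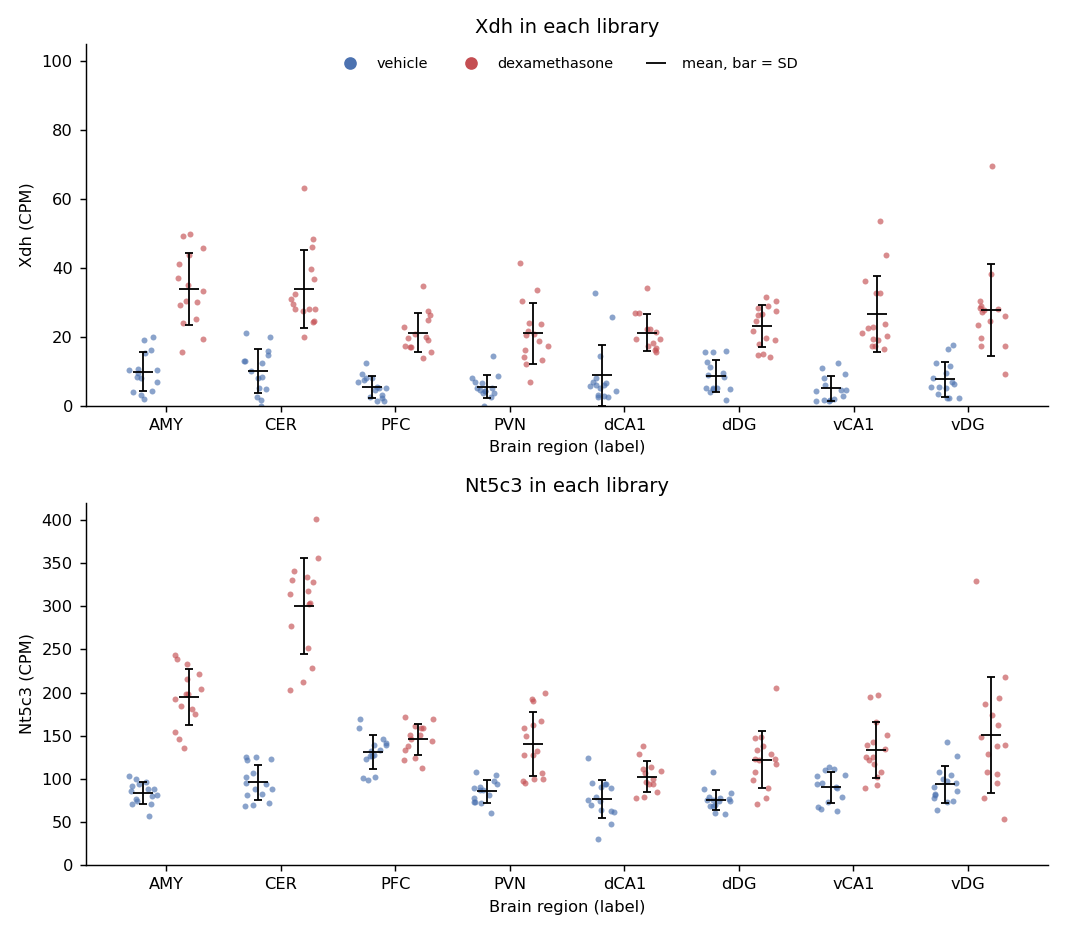
Levels of Xdh (top) and Nt5c3 (bottom) in CPM, 1 point per library, by region and arm, with the mean and SD of each group in black (SD bars are clipped at 0). The dexamethasone mean of Xdh is above the vehicle mean in every region, with overlapping libraries in all but PFC and vCA1, while the libraries of Nt5c3 are far above in CER (mean 300.2 against 96.0 CPM) and overlap almost fully in PFC (146 against 131 CPM).

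Xanthine oxidoreductase is known from capillary endothelium, and marker genes of other cell types moved between the arms. The summed level of 10 endothelial markers was 401 to 501 CPM in the 8 vehicle groups (means) and 278 to 385 CPM after dexamethasone, the opposite direction to Xdh. Of the 6 endothelial markers tested, Flt1 and Slco1a4 were lower in all 8 regions and the other 4 passed in none, and the 4 not tested were too low for the filter. The summed level of 7 microglial markers was 298 to 592 CPM in vehicle groups and 202 to 371 CPM after dexamethasone, with Cx3cr1 and P2ry12 lower in all 8 regions. In vCA1, where the difference of Xdh was largest, 3 of 5 dentate granule markers tested were higher (Dsp by 1.95, Npnt by 1.22 and C1ql2 by 1.08 on the log2 scale) and Ttr, a choroid plexus marker, was lower (-2.27). In dCA1, 2 of 8 dentate granule markers were lower (Plk5 -0.82 and C1ql2 -0.64 on the log2 scale), with a median of -0.38 over the 8, and Prox1, the marker of that list that passed in AMY, CER and PVN, was lower there (-0.47, -1.04 and -0.35). Of 6 astrocyte markers Aldh1l1 was higher (0.72) and Aqp4 lower (-0.44) in dCA1, and of 6 oligodendrocyte markers Mog was lower in AMY (-0.58). The median of the oligodendrocyte markers was -0.40 in vCA1 and -0.36 in vDG, where 0 of 6 passed. With the level of dentate genes as a covariate Xdh differed by 2.31 in vCA1 and Nt5c3 by 0.65. No endothelial or microglial marker was at 0 in every library of a group. In bulk tissue, fewer cells of a type and less RNA per cell cannot be told apart, and the part of these marker shifts in the level of Xdh was not tested.

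Nt5c3 encodes a cytosolic 5'-nucleotidase that removes phosphate from pyrimidine monophosphates, and lies on chromosome 6 (56882400 to 56923932, minus strand; ENSMUSG00000029780). It was the member whose difference depended most on the region. In CER it was 3.16-fold higher after dexamethasone, in AMY 2.31-fold, and in PFC 1.12-fold. The 250 bases before its RefSeq start are shown because its difference was unequal between regions. That start lies inside the gene, whose 5' end on the minus strand is at 56923932. The 1 window of Nt5c3 does not cover that end. From Nt5c2, 30 bases, also inside their gene, are shown. They hold the only match, in the windows searched, to the arm of the DNA element that the glucocorticoid receptor binds.

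Nt5c3, chr6:56901887-56902136, minus strand, GRCm38.p6: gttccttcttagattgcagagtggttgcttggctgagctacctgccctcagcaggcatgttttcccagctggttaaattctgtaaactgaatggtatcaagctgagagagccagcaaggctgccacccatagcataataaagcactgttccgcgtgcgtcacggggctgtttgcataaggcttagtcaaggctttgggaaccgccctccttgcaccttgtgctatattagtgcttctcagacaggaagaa
Nt5c2, chr19:46969541-46969570, minus strand, GRCm38.p6: gcagttaAGAACAtttgcTGTTCTtccaaa

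Windows of 250 bases before to 50 after a start were taken from RefSeq for 7 of the 8 genes, 14 windows in all; Xdh had none and was not searched. They were searched on both strands for the palindrome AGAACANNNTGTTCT and for its arm, AGAACA or its reverse complement TGTTCT. The palindrome was in 0 of the 14 windows and in 3 of all 32851 windows. The arm was in 1 of the 14 windows (7.14%) and in 19% of all windows. The match is in 1 of 7 windows of Nt5c2, where capitals mark AGAACA and TGTTCT, 5 bases apart and not the 3 of the palindrome. The log2 differences of Nt5c2 between the arms were at most 0.16, and the window of Nt5c3 held no match. A match describes letters only.

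In CER, Nt5c3 ranged from 68.6 to 125 CPM (median 93.4) over the vehicle libraries and from 204 to 401 CPM (median 315) over the dexamethasone libraries. In AMY the ranges were 57.2 to 104 CPM (median 85.3) and 136 to 244 CPM (median 199). In both regions all 15 dexamethasone libraries lay above all 15 vehicle libraries, a pattern shown by 0.576% of genes tested in CER and 0.348% in AMY. In PFC, vehicle libraries ran from 98.8 to 169 CPM (median 132) and dexamethasone libraries from 112 to 172 CPM (median 148), and 1 of 14 dexamethasone libraries lay above the highest vehicle library.

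The remaining regions lay between these. In PVN, 10 of 15 dexamethasone libraries of Nt5c3 were above the highest vehicle library, with ranges of 59.7 to 108 CPM (vehicle, median 86.9) and 95.5 to 199.9 CPM (dexamethasone, median 133). In dDG, 11 of 15 were above, with 58.9 to 107 CPM (median 75.2) against 70.7 to 205 CPM (median 122). In vCA1, 11 of 15 were above, with 62.1 to 113 CPM (median 92.2) against 89.2 to 197 CPM (median 125). The spread was widest in vDG, where dexamethasone libraries ran from 52.9 to 330.1 CPM (median 139) against 63.9 to 143 CPM (median 90.3), and 7 of 15 exceeded the highest vehicle library. In dCA1, 2 of 13 did, with 30.0 to 124 CPM (median 75.1) against 77.8 to 138 CPM (median 99.1). The lowest dCA1 vehicle values, 30.0 and 47.7 CPM, were those of replicates 4 and 3, which had the highest Xdh.

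The log2 difference of Nt5c3 was 1.66 ± 0.10 (SE) in CER, 1.21 ± 0.09 in AMY, 0.74 ± 0.11 in PVN, 0.69 ± 0.17 in vDG, 0.68 ± 0.11 in dDG, 0.57 ± 0.11 in vCA1, 0.40 ± 0.12 in dCA1 and 0.16 ± 0.08 in PFC. It passed the threshold as higher in 7 of 8 regions, all but PFC, and with limma on the authors' variance-stabilised values in 6, without vDG (0.47). In the fit over all regions its differences spanned 1.5004. The order of regions also changed with treatment: vehicle libraries were highest in PFC (131 ± 20.1 CPM, SD, n = 15), and dexamethasone libraries in CER (300.2 ± 55.8 CPM, SD, n = 15). Without the 7 libraries the difference was 0.37 in dCA1, 0.63 in vCA1 and 0.65 in vDG, and without the 5 with cerebellar granule genes 0.56 in vCA1 and 0.74 in vDG. The ratio of mean levels was above 1 in 31 of 32 combinations of region and plate and in 31 of 32 of region and day used, with the exceptions (log2 -0.03 and -0.09) both in PFC.

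The same animals were then compared over their regions. For each animal the log2 level of each gene was taken relative to the region's vehicle mean and averaged over its 6 to 8 regions. For Xdh this mean ran from -0.79 to 0.70 over the 15 vehicle animals and from 1.3003 to 1.95 over the 15 dexamethasone animals, and for Nt5c3 from -0.24 to 0.30 and from 0.42 to 0.93. Arms did not overlap in either gene, but both were chosen on this comparison. The share of all genes whose animal means separate the arms was not computed, so this is a description. Across the 235 libraries, after subtraction of group means, the levels of Xdh and Nt5c3 had a Pearson r of 0.05, and the highest r among the 28 pairs of members was 0.39, between Nt5c3 and Hprt. Libraries share depth and tissue composition, so these values are descriptions.

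Of 33 tests of the other 6 enzymes 0 passed in either direction in the reported fits, against 5.17% of all tests, and 1 or 2 passed under 5 of 11 alternatives. Nt5c2 (ENSMUSG00000025041, chromosome 19, 46886831 to 47015153, minus strand) encodes the cytosolic nucleotidase that acts on inosine and guanosine monophosphates. Its log2 differences lay between -0.03 (dCA1) and 0.16 (PVN), with vehicle means of 39.6 to 52.1 CPM. Of its exon bases, 456 (10.2%) overlap Ina on the opposite strand, and whether the counting used strand is not given in the sources used here. Hprt, the salvage enzyme for hypoxanthine and guanine (ENSMUSG00000025630, chromosome X, 52988137 to 53021659, plus strand), differed by -0.15 (PVN) to 0.22 (dCA1). Adk, which returns adenosine to AMP (ENSMUSG00000039197, chromosome 14, 21052574 to 21448568, plus strand), differed by -0.23 (dDG) to 0.16 (dCA1).

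Gda, the guanine deaminase that supplies xanthine (ENSMUSG00000058624, chromosome 19, 21391307 to 21473445, minus strand), had the widest spread of these 6, from -0.72 ± 0.31 (SE) in CER to 0.44 ± 0.20 in PVN. In CER the vehicle libraries ran from 16.3 to 334 CPM with a median of 47.5, and the dexamethasone libraries from 18.7 to 103 CPM with a median of 55.9. The mean was thus higher in vehicle (96.0 CPM) than after dexamethasone (57.1 CPM), and the median lower. The 2 highest vehicle libraries, at 334 and 294 CPM, held 1580 and 664 CPM of Nrgn, a gene of forebrain neurons, against 104 to 729 CPM in the other 13, and the part of tissue mixture in this result was not tested. In dCA1 the difference of Gda was -0.30 ± 0.10, with means of 358 ± 74.7 CPM (SD, n = 15) and 293 ± 53.5 CPM (SD, n = 13). It was -0.34 without the dCA1 vehicle library that the authors' tables leave out, and then passed the threshold. With the replicate number as a block, which pairs the arms by library plate, it was -0.35 and passed too.

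Pnp, purine nucleoside phosphorylase, and Aox1, an aldehyde oxidase that shares the molybdenum cofactor with Xdh, were near the limit of detection. Pnp's row (ENSMUSG00000021871, chromosome 14, 50944302 to 50965237, plus strand) carries another name in GENCODE M21 but all of its 3085 exon bases lie in exons of Pnp there. It passed the filter on low counts in no region. In vCA1 its vehicle libraries ran from 6.46 to 13.8 CPM (median 10.1) and its dexamethasone libraries from 0 to 8.14 CPM (median 4.13), and the log2 difference without the filter was -1.12 ± 0.24 (SE), which passed the threshold in that fit. The other 7 regions gave -0.28 (PFC) to -0.68 (dDG) without the filter, so that the sign was negative in all 8. The ratio of mean levels of Pnp was above 1 in 3 of 32 combinations of region and plate and in 1 of 32 of region and day. Aox1 (ENSMUSG00000063558, chromosome 1, 58029931 to 58106413, plus strand) passed the filter in vDG only, with a difference of 0.15 ± 0.24, and without the filter its differences had both signs, from -0.30 (vCA1) to 0.46 (AMY).

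**Figure D2:**
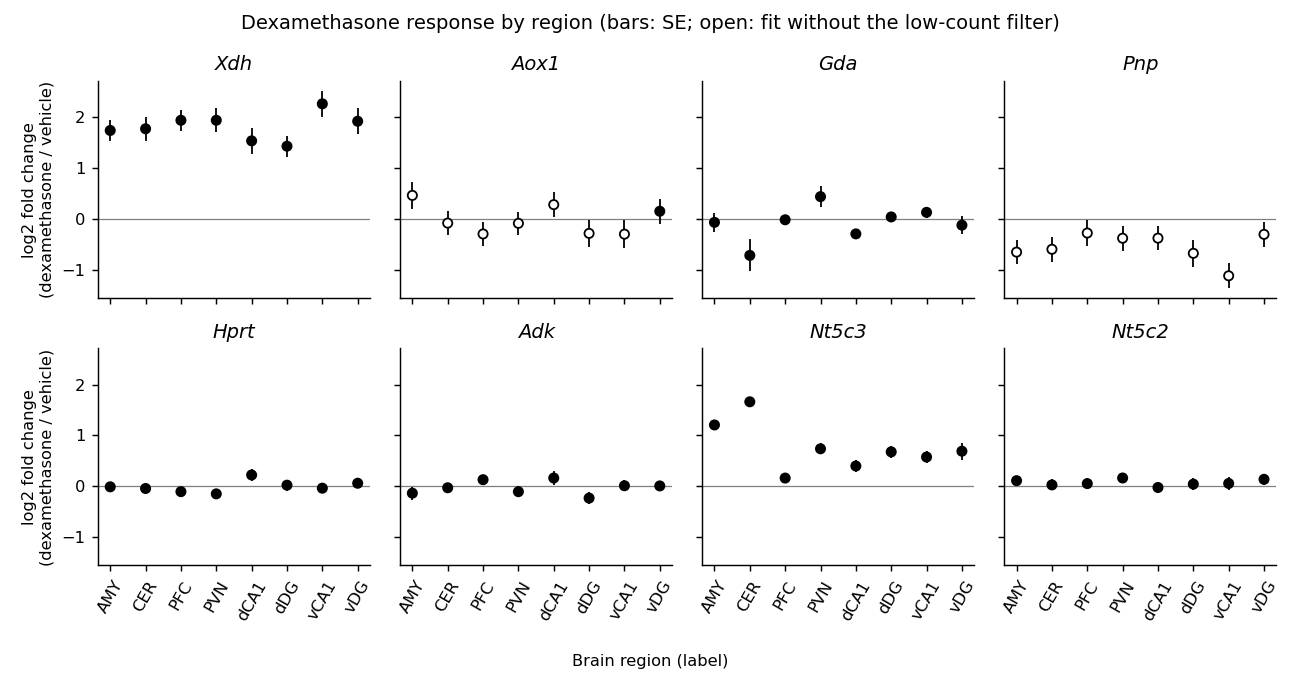
Log2 fold change of dexamethasone over vehicle for the 8 enzymes by region, with SE bars; filled points are from the fits with the filter on low counts, open points from fits without it. Xdh lies between 1.43 and 2.26 in all regions, Nt5c3 between 0.16 (PFC) and 1.66 (CER), and Pnp below 0 in all regions.

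Levels without treatment were compared between regions in the 118 vehicle libraries, with the animal as a block. They enter the differences for which Xdh and Nt5c3 were chosen, so for these 2 genes they are given as a description. The other 6 genes differed among regions by edgeR's quasi-likelihood F test, and so did 73.3% of the 10451 genes tested. Gda varied most, from 558 ± 85.9 CPM (SD, n = 15) in PFC to 96.0 ± 96.9 CPM (SD, n = 15) in CER (adjusted p = 2.95e-25). The order of Gda was PFC, vCA1, vDG, AMY, dCA1, dDG, PVN and CER. Of neighbours in that order only dDG and PVN differed, by 1.56 ± 0.21 (log2, SE; edgeR adjusted p = 2.5e-10), which set PVN and CER below the other 6 regions. In all, 16 of the 28 pairs of regions differed, against 31.4% of all tests of pairs.

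Nt5c3 in vehicle was highest in PFC (131 CPM) and lowest in dDG (75.6 ± 11.6 CPM, SD, n = 15), with CER, vDG, vCA1, PVN, AMY and dCA1 between. PFC exceeded its neighbour CER by 0.46 ± 0.09 (log2, SE). PFC, the region with the highest vehicle level, was thus also the region with the smallest difference after dexamethasone. Across the 8 regions no correlation of level and response is given, since the vehicle mean enters both.

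Hprt was highest in PFC (204 ± 27.7 CPM, SD, n = 15) and lowest in dCA1 (127 ± 35.7 CPM, SD, n = 15; edgeR adjusted p = 1.2e-12). Its order was PFC, PVN, vCA1, CER, AMY, dDG, vDG and dCA1. The only neighbours that differed were AMY and dDG, by 0.32 ± 0.10 (log2, SE; edgeR adjusted p = 0.0057), and 16 of 28 pairs differed.

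Xdh was highest in CER (10.0 ± 6.49 CPM, SD, n = 15) and lowest in vCA1 (5.01 ± 3.701 CPM, SD, n = 14). The order was CER, AMY, dCA1, dDG, vDG, PVN, PFC and vCA1. AMY and CER lay above PFC, PVN and vCA1 by 0.80 to 0.84 on the log2 scale. Adk was higher in CER (58.9 ± 10.3 CPM, SD, n = 15) than in 6 of the other 7 regions (edgeR adjusted p of any difference 0.0077), and its lowest mean was 43.8 CPM in dCA1. Nt5c2 was highest in PVN (52.1 ± 8.46 CPM, SD, n = 14) and lowest in vCA1 (39.6 ± 8.73 CPM, SD, n = 14; edgeR adjusted p = 0.011). Aox1 was lowest in AMY (6.65 ± 3.40 CPM, SD, n = 15) and highest in vDG (13.2 ± 5.97 CPM, SD, n = 15; edgeR adjusted p = 0.016). Pnp was highest in dDG (12.5 CPM) and lowest in PFC (8.13 CPM), with an edgeR adjusted p of 0.047 that rose above 0.05 in 7 of the 8 alternatives run.

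**Figure D3:**
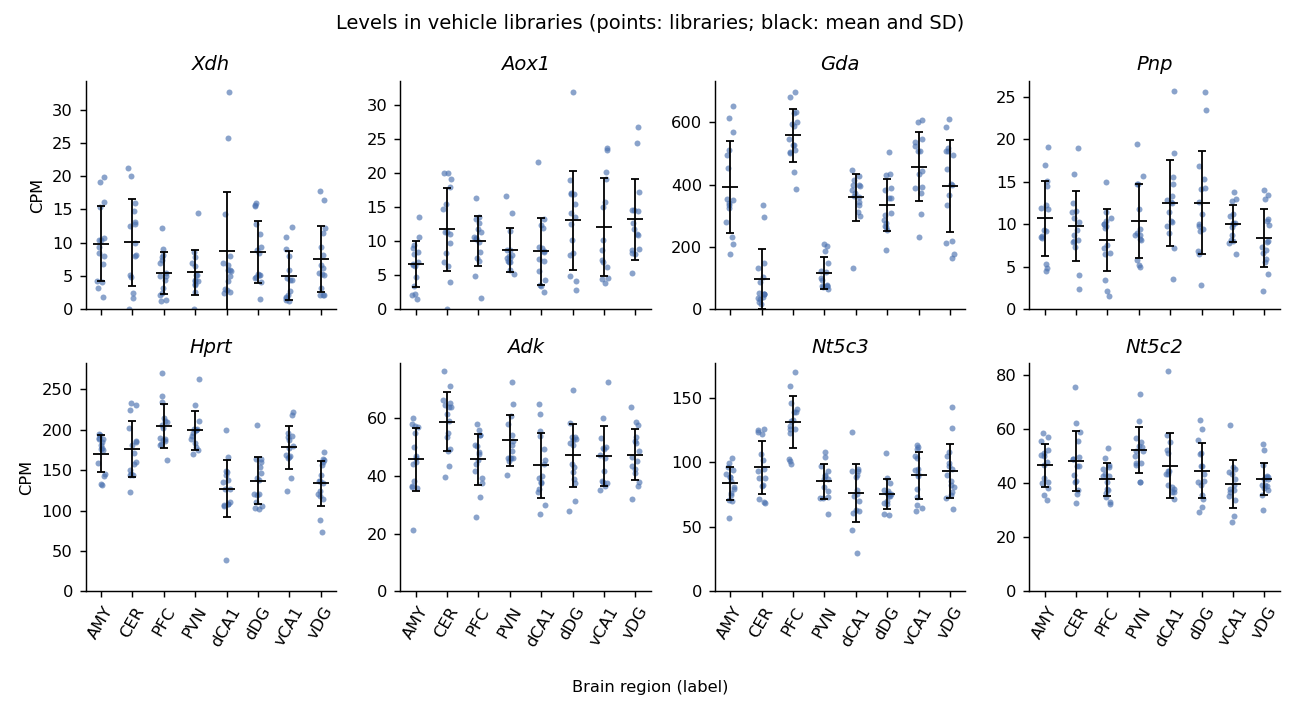
Levels in CPM of the 8 enzymes in the vehicle libraries by region, 1 point per library, with the mean and SD in black (SD bars are clipped at 0); each panel has its own axis. Gda is low in CER and PVN and high in PFC, and Nt5c3 stands highest in PFC (131 CPM).

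The other genes of nucleotide metabolism were taken from a list of 112 enzymes, transporters and receptors in 12 groups. Of these, 65 were tested in at least 1 region, in 454 tests. As higher after dexamethasone 14 tests passed, against 3.23% of all 71817 tests, and as lower 5 passed, against 1.94%. Together 4.19% of the list's tests passed and 5.17% of all tests. The median log2 difference was -0.01 in the list and -0.01 over all tests, and the share of the list's tests that passed was near that of all genes. With the replicate number as a block 8 tests of the list passed as lower (1.76%, against 2.56% of all tests). The 19 tests came from 10 genes.

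Among the genes of purine breakdown Ampd3, which deaminates AMP to IMP, rose in 7 of the 8 regions. In dCA1 its vehicle libraries ran from 2.83 to 25.7 CPM (median 11.0) and its dexamethasone libraries from 18.5 to 30.4 CPM (median 25.0), a log2 difference of 1.18 ± 0.17 (SE; edgeR adjusted p = 3.76e-06). In AMY, where the difference was smallest, vehicle libraries ran from 12.0 to 31.2 CPM (median 21.3) and dexamethasone libraries from 16.7 to 44.1 CPM (median 32.0), a difference of 0.58 ± 0.13 (edgeR adjusted p = 0.0022). The differences in the other regions that passed were 0.68 in PFC, 0.80 in CER, 0.84 in PVN, 0.90 in vCA1 and 1.01 in vDG. In dDG the difference was 0.61 ± 0.18 (edgeR adjusted p = 0.057) and did not pass, but it passed with the replicate block (0.60, edgeR adjusted p = 0.0208). Ampd2 was the only other gene of that group tested, and it passed in no region.

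The other 5'-nucleotidases on the list passed in 0 of 31 tests (6 genes, with log2 differences between -0.25 and 0.77). With the replicate block Nt5e passed as higher in AMY (0.77, edgeR adjusted p = 0.0282). Purine salvage passed in 0 of 24 tests, pyrimidine salvage in 0 of 30, extracellular hydrolysis in 0 of 36, molybdenum cofactor genes in 0 of 24 and pyrimidine breakdown in 0 of 8. All these counts are from edgeR with the filter on low counts. Without it Nt5e passed as higher in 3 regions and Suox, sulfite oxidase of the molybdenum cofactor group, in 5, and Enpp2, an extracellular phosphodiesterase, passed as lower in vCA1. With limma on the authors' variance-stabilised values Nt5e and Suox passed in the same regions as without the filter, and Alpl, alkaline phosphatase, passed as lower in vCA1.

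Among the kinases of nucleotide monophosphates, Ak4, a mitochondrial adenylate kinase, fell in 3 regions, by 0.60 in AMY, 0.65 in CER and 0.37 in PFC on the log2 scale. Its CER means were 48.8 ± 14.7 CPM (SD, n = 15) in vehicle and 31.7 ± 10.6 CPM (SD, n = 15) after dexamethasone. In dCA1 Ak4 was -0.45 and did not pass in the reported fit (edgeR adjusted p = 0.062). It passed there with the replicate block (edgeR adjusted p = 0.0154), with DESeq2, and with date and plate as factors. Under some alternatives Ak4 also passed as lower in vDG, vCA1 or dDG. Ak3, a mitochondrial kinase that uses GTP, rose in PVN by 0.29 ± 0.09, and Cmpk2, a mitochondrial kinase of UMP and CMP, fell by 0.52 in dCA1. Both were near the threshold: Ak3 did not pass under 4 of 9 alternatives (edgeR or limma adjusted p 0.053 to 0.072) and Cmpk2 under 2 of 9 (edgeR adjusted p 0.051 and 0.086). Rrm2b, a subunit of ribonucleotide reductase, rose in CER by 0.56 ± 0.13. Its mean there was 21.2 ± 5.09 CPM (SD, n = 15) in vehicle against 31.3 ± 7.55 CPM (SD, n = 15).

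Of the synthesis genes, Cad, the enzyme that starts pyrimidine synthesis, rose in PFC by 0.58 ± 0.13 (edgeR adjusted p = 0.0028). Its mean was 24.0 ± 5.95 CPM (SD, n = 15) in vehicle against 36.2 ± 8.98 CPM (SD, n = 14). Adssl1, which joins IMP to aspartate, rose in CER by 0.70 ± 0.18, and Impdh1, which oxidises IMP, fell by 0.58 in dDG, but did not pass there without the filter (edgeR adjusted p = 0.068). With the replicate block Prpsap2, a partner of phosphoribosyl pyrophosphate synthetase, passed as lower in PVN (-0.33, edgeR adjusted p = 0.0376). Slc29a3, a nucleoside transporter of intracellular membranes, rose in PVN by 0.58 ± 0.12, with means of 34.2 ± 9.11 CPM (SD, n = 14) in vehicle and 50.2 ± 10.4 CPM (SD, n = 15) after dexamethasone. Adora1, the inhibitory adenosine receptor, rose in dCA1 by 0.33 ± 0.08 and in dDG by 0.29 ± 0.09, and in dDG it did not pass under 3 of 9 alternatives (edgeR or limma adjusted p 0.053 to 0.071). Adora2a, a stimulatory adenosine receptor, did not pass in AMY in the reported fit. It passed there as lower with the replicate block (-1.21, edgeR adjusted p = 0.0045) and with date and plate as factors. In the reported fits Ampd3 passed in more than 3 regions, and the other genes that passed did so in 1 to 3.

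**Figure D4:**
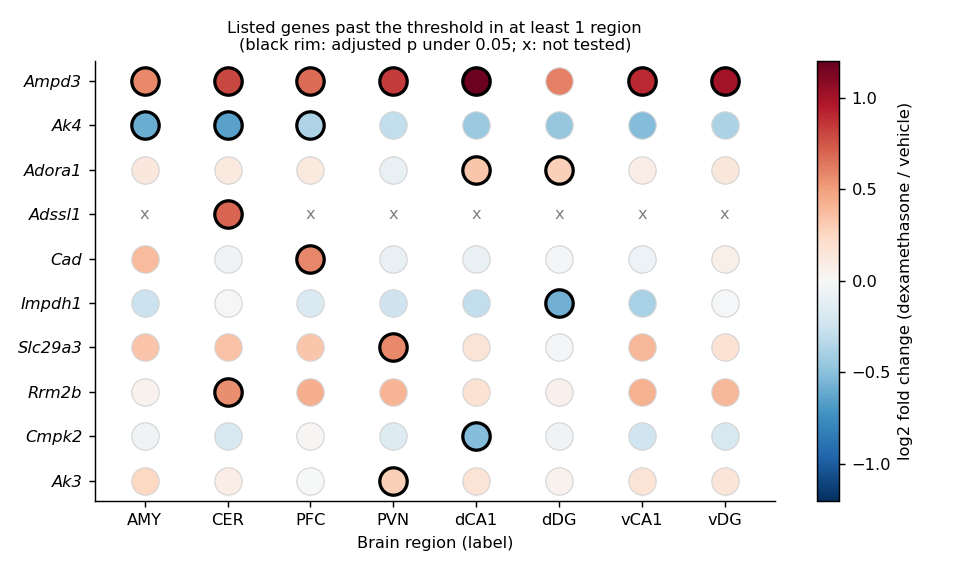
Log2 fold change of dexamethasone over vehicle (colour, both directions on the same scale) for the 10 listed genes that passed in at least 1 region, with a black rim where edgeR's adjusted p was under 0.05 and an x where the gene was not tested. Ampd3 is higher in all 8 regions and passes in 7, and Ak4 is lower in all 8 and passes in 3.

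Whether the response of a listed gene differed among regions was tested over all 235 libraries. Of 74 listed genes 0 passed edgeR's interaction test, with 3 at an unadjusted p under 0.05, whereas 129 of 11053 genes passed (1.17%). This fit did not account for the animals that regions share; with the animal as a block 0 of 74 listed genes passed, again with 3 at an unadjusted p under 0.05, and 140 of all genes. The 5 listed genes with the smallest p were Cad, Prpsap2, Tk2, Rrm2b and Nt5dc2. Cad's adjusted p was 0.15, with 0.58 in PFC, 0.38 in AMY and -0.10 to 0.06 in the other 6 regions. Prpsap2 spanned 0.53 (edgeR adjusted p = 0.62), Tk2 0.42 (edgeR adjusted p = 0.68), Rrm2b 0.51 (edgeR adjusted p = 0.88) and Nt5dc2 0.75 (edgeR adjusted p = 0.96). Ampd3, Ak4 and Adora1 did not pass this test, which asks for any difference among the regions. It does not compare the regions where they passed with the others. A test that is not passed does not show that responses were equal.

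Genes with a pattern like that of Xdh were sought by Pearson r of the mean log2 levels over the 16 groups, among 11504 genes. The highest were Nfkbia, an inhibitor of NF-kappaB (r = 0.98), Slc2a1, the glucose transporter of the blood-brain barrier (0.98), Zfp36, an RNA-binding protein that destabilises transcripts (0.98), Pik3c2a, a lipid kinase (0.97), and Plin4, a lipid droplet protein (0.97). Nfkbia differed by 1.15 to 1.66 on the log2 scale over the 8 regions and Slc2a1 by 1.03 to 1.29. Within groups, over 235 libraries, their levels had an r with Xdh of 0.51 and 0.48. With 16 points that fall into 2 arms, a high r mostly records that a gene was higher after dexamethasone in every region.

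For Nt5c3 the highest were Znfx1, an RNA helicase-like protein of antiviral defence (r = 0.96), Sgk3, a serum- and glucocorticoid-regulated kinase (0.92), Traf5, an adaptor of tumour necrosis factor receptors (0.90), Arfgap3 (0.89) and Sra1 (0.89). Znfx1 had its largest log2 difference in CER (1.89 ± 0.11, SE) and its smallest in PFC (0.06 ± 0.12). Its mean went from 27.3 to 101.6 CPM in CER and from 38.8 to 41.0 CPM in PFC, where the vehicle level was highest. Sgk3 differed by 2.49 ± 0.14 in CER, 1.74 ± 0.16 in AMY and 0.60 ± 0.17 in PFC. Arfgap3 and Sra1 also had their largest difference in CER (0.99 and 1.05) and their smallest in PFC (0.19 and 0.28). The ranking used the group means that hold this pattern of Nt5c3, so it selects genes that share the pattern. Traf5 passed the filter on low counts in CER only, where it went from 2.87 to 22.7 CPM. Within groups the r of these 5 genes with Nt5c3 was 0.07 to 0.37.

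**Figure D5:**
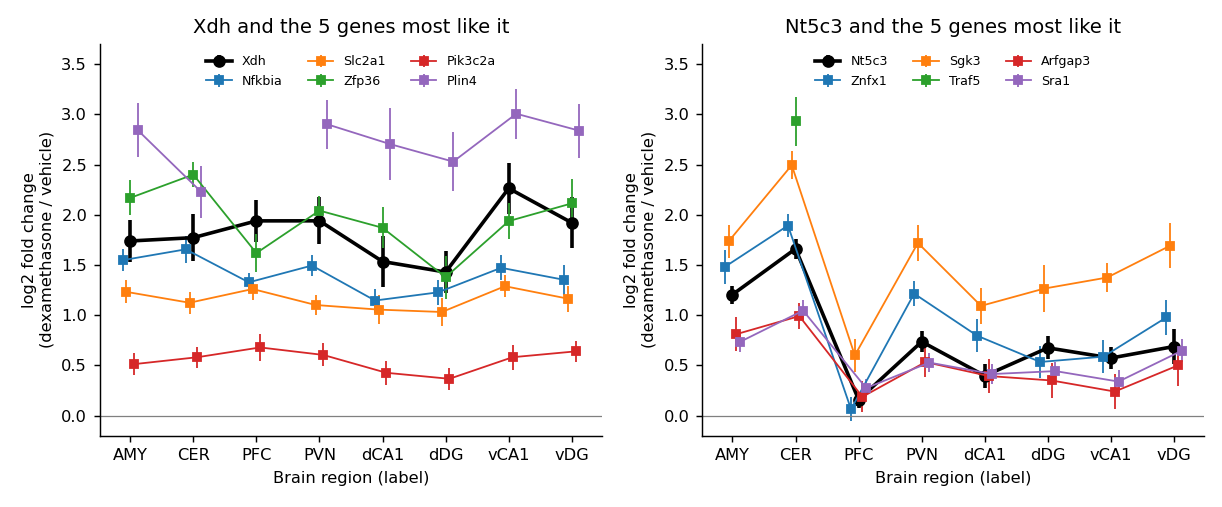
Log2 fold change of dexamethasone over vehicle by region for Xdh (left) and Nt5c3 (right), in black, and for the 5 genes most like each over the 16 group means, with SE bars; gaps mark regions where a gene was not tested. Znfx1 (1.89 and 0.06), Sgk3, Arfgap3 and Sra1 peak in CER and are lowest in PFC, Traf5 was tested in CER only, and those beside Xdh are above 0 in all regions tested.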

How the data were processed

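The deposited table holds whole-number counts of reads per gene for 235 libraries. Per the labels' protocols these came from 3' libraries (QuantSeq 3' FWD with molecular identifiers), so a level is not per transcript length and levels of different genes were not compared. The submitters' processing notes name FastQC 0.11.4, cutadapt, UMI-tools 0.5.4, STAR 2.6.0a, featureCounts 1.6.4, DESeq2 1.30.1, R 4.0.5 and the mm10 build. Annotation and use of strand are not given in the sources used here. The authors also deposited, per region, log2 variance-stabilised values for 228 of the libraries, which were used here as an alternative.

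Counts were fitted per region with edgeR 4.0.16 in R 4.3.3 (TMM scaling, filterByExpr, quasi-likelihood F test, Benjamini-Hochberg adjustment over all genes tested, threshold 0.05). Regions were compared in vehicle libraries with the animal as a block, and responses between regions in a fit of all 16 groups without an animal term, for which the animal as a block was an alternative chosen after seeing the data. limma 3.58.1 and DESeq2 1.42.0 served as alternatives, and figures were drawn with matplotlib 3.10.9. The fits were tested on simulated data. Libraries of the same region and replicate number shared the library plate in 115 of 115 pairs of a vehicle and a dexamethasone animal and the day of punching in 109, per the labels, and their deviations had median correlations of 0.05 to 0.22 per region; the number as a block was an alternative, given where it changed a call. It raised the genes called in dDG from 316 to 543. Nearest genes were ranked on mean log2 CPM (prior count 2) among genes with a mean of at least 5 CPM. Intervals and limits from counts cover counting error only.

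The 8 genes, the list and the markers were chosen with earlier results of these data known. Genes named beside the 8 are the listed genes that passed in at least 1 region, the 5 listed genes with the smallest interaction p, and the 5 genes nearest to Xdh and to Nt5c3; markers are named where their list is described. Named outside this rule, after their values were seen, are listed genes that passed only under an alternative, Ampd2 as the remaining tested gene of its group, Nrgn and Ina.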

Additional observations from a re-analysis of the deposited data

Results flagged for a closer look

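The response of Nt5c3 to dexamethasone differed between regions: its log2 fold changes spanned 1.5004 over the 8 regions in the fit of all libraries, from 0.15 in PFC to 1.65 in CER. Nt5c3 was chosen for this difference, so its test is not quoted.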

How the results depend on the processing

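Xdh passed as higher in 8 regions under all 11 alternatives, and Nt5c3 in 7 under all but limma on the authors' variance-stabilised values, which gave 6 (without vDG). Of 1033 values under alternatives, 977 kept their direction and side of the threshold or stayed within the spread, 39 moved and 17 lost their call. The lost calls were Pnp in vehicle 7, Ak3 in PVN 4, Adora1 in dDG 3, Cmpk2 in dCA1 2 and Impdh1 in dDG 1. Of differences that passed in the reported fits, 0 reversed. For members that had not passed, a change of sign within the spread was not counted as reversed. An example is Gda in PFC, at -0.02 as reported and 0.02 with the authors' libraries. Tests passed by the other 6 enzymes, 0 as reported, were 1 under each of 4 settings (no filter, the authors' libraries, date plus plate as factors, the replicate block) and 2 with limma; without the filter it was Pnp in vCA1. Listed genes passed as higher in 27 of 848 tests with no filter (3.18%, against 2.05% of all tests) and in 27 of 694 with limma (3.89% against 2.92%), where the reported fits gave 14 of 454 (3.08% against 3.23%). They passed as lower in 5 tests (1.1% against 1.94%), and in 10 with date and plate as factors (2.2% against 2.31%), 8 under the replicate block (1.76% against 2.56%), 9 with limma (1.3% against 1.94%) and 8 without the libraries with cerebellar granule genes (1.77% against 1.93%, chosen after seeing the data). Genes called in dDG went from 316 to 543 with the replicate block, and in vCA1 from 497 to 278 with the dentate level as covariate. The adjusted p of Pnp between vehicle regions (0.0472) was 0.0529 with no replicate block, 0.0576 with DESeq2, 0.0598 with upper-quartile scaling, 0.0756 with no filter, 0.0953 with RIN as covariate, 0.0565 with the authors' libraries and 0.0764 without the cerebellar-gene libraries. With a minimum of 1 CPM, 3 of the 5 genes nearest to Nt5c3 stayed. The causes were not tested. The replicate block changed no call of Xdh or Nt5c3. Depth limits Pnp, Aox1 and vehicle Xdh, which rest on few counts per library.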

Other observations

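Several listed genes were too low for the filter on counts in the regions where they passed edgeR's quasi-likelihood test without it; they are named here after their values were seen. In those fits 2.05% of all tests passed as higher and 1.28% as lower, against 27 (3.18%) and 6 (0.708%) of 848 tests of the list. Ada, adenosine deaminase, was above vehicle in all 8 regions and passed in 6, with log2 differences of 0.95 (dDG) to 2.49 (vDG). In AMY it had 12 counts over the 15 vehicle libraries and 60 over the 15 dexamethasone libraries, and 7 vehicle libraries but 0 dexamethasone libraries were at 0. Suox, sulfite oxidase, which uses the same molybdenum cofactor as Xdh, was above vehicle in all 8 regions and passed in 5, with differences of 0.61 to 1.07 and means of 4.26 to 6.98 CPM in vehicle and 8.55 to 14.1 CPM after dexamethasone. Nt5e, the ectonucleotidase CD73 that makes adenosine outside cells, was above vehicle in all 8 regions and passed in 3, with differences of 0.35 to 1.51. Adora3, an adenosine receptor known from mouse microglia, was below vehicle in all 8 regions and passed in AMY, where it had 14 counts in vehicle and 1 after dexamethasone. Adora2a passed as lower in dDG (-1.92), and in vCA1 its means were 2.08 CPM in vehicle and 2.19 CPM after dexamethasone; Adora2b was above vehicle in all 8 and passed in vDG (1.31).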
